A study of Mus musculus with 9 samples.

Results

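The interferon-stimulated genes described here were 33 named mouse genes that interferon is known to induce, or that carry or limit its signal. They were chosen by symbol, through every probe set (a group of probes for a transcript) that the array annotation assigns to exactly 1 of those symbols. Of the 33 genes, 31 were measured, among 18193 genes in the series, by 45 probe sets. Isg15 had only a probe set shared with another gene, and the annotation used names no probe set for Ifi44, so neither was analysed here. A single probe set stood for 20 genes, and 11 had several.

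The RNA came from cells of the mouse neural crest lineage cut out by laser capture, on 9 Affymetrix arrays, 3 biological replicates for each stage. The groups were the closing neural tube of embryos at E8.5, the dorsal root ganglion at E13.5, and the adrenal medulla of adults at P90, 90 days or 3 months after birth. The labels name no strain, genotype or treatment and do not give the number of animals behind a capture, so p-values measure the spread between these arrays. Tissue changed with stage throughout the design, so effects of stage, tissue and captured cell types cannot be told apart.

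Interferons are secreted proteins that warn cells of infection. Type I interferon acts through the receptor chains Ifnar1 and Ifnar2 and the kinases Jak1 and Tyk2, which lead Stat2 and Irf9 to a promoter element called the interferon-stimulated response element. Interferon gamma acts through Ifngr1 and Ifngr2 and drives a STAT dimer to another element, the gamma activated site. The genes so induced detect foreign RNA, block virus entry, assembly or translation, attack vacuoles that hold microbes, or damp the signal, and macrophages and endothelium are known for high levels of many of them.

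Array median signals lay between 38.3 and 48.2, in intensity units whose scaling between arrays is not stated. Summed signals of chromaffin cell markers were 456 to 479 on E8.5 arrays, 1487 to 4053 on E13.5 arrays and 12771 to 26247 on P90 arrays, and those of neural crest markers were 6539.6 to 8499 on E8.5 arrays, 3088 to 5083 on E13.5 arrays and 1200.3 to 2208 on P90 arrays. P90 replicate 1 stood apart from the other P90 arrays: on P90 replicates 1, 2 and 3 the chromaffin sums were 12771, 26247 and 25234, those of endothelium markers 6251, 1896 and 1908, and those of adrenal cortex markers 8246, 4813 and 4168, the last from only 2 of 10 markers with no empty value. Log2 signal of the 3′ probe set of Actb minus that of its 5′ probe set, which reflects RNA and labelling quality, ranged from 2.05 to 4.82 at E8.5, from 0.85 to 6.996 at E13.5 and from 1.36 to 4.09 at P90. The part of any of these in the results below was not tested.

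A part of the interferon-stimulated genes, led by Irf8, Ifi35 and Igtp, was higher in the adult adrenal medulla than at either embryonic stage, while Ifitm1 alone was called between the embryonic stages. A limma fit of log2(signal + 16) tested 28 of the 31 measured genes. Irf2, Mx1 and Mx2 failed the filter on low values, which asked for a signal above 26.1 on at least 3 arrays. Of the 28 genes, 10 passed this filter only with their P90 arrays, which favours genes that are higher there. Among all genes tested, 716 passed only in this way, and 228 of them were called higher against E8.5 and 135 against E13.5. All 10 members were called higher at P90 against both E8.5 and E13.5. Of the other 18, with at least 3 of the 6 embryonic arrays above the filter, 8 were called higher against E8.5 and 7 against E13.5, where 9.74% and 2.70% of the 13032 genes that passed in this way were. Over all 28, at P90 against E8.5, 18 genes were called higher (adjusted p under 0.05), where 10.9% of all 13748 genes tested were, and Ifitm1 was called lower, where 12.5% of all genes were. At P90 against E13.5, 17 were called higher (3.54% of all genes) and 0 lower (5.94% of all genes; limma gave 0 members at an unadjusted p under 0.05 too). At E13.5 against E8.5, limma called 0 higher (9.27% of all genes; 1 member at an unadjusted p under 0.05) and 1 lower, again Ifitm1 (7.22% of all genes). Without E13.5 replicate 3 the count against E13.5 was 9, and that of all genes fell too, to 272 (1.98%). The comparisons share arrays, so they are not separate lines of support. In these samples of many cells, a change in the share of a cell type and a change of RNA per cell cannot be told apart.

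The median log2 change of the 28 genes was 1.77 at P90 against E8.5, 1.44 at P90 against E13.5 and 0.16 at E13.5 against E8.5. Over all genes tested the medians were 0.00, −0.05 and 0.02 for the same comparisons. Both member medians include the 10 genes that passed only with P90 arrays. Without the filter, limma tested all 31 measured genes and called 19 higher at P90 against E8.5 (7.84% of all genes) and 1 lower (8.95%). The same fit called 15 higher at P90 against E13.5 (2.54%) and 0 lower (4.14%; 0 at an unadjusted p under 0.05). At E13.5 against E8.5 it called 0 higher (6.37%; 1 at an unadjusted p under 0.05) and 1 lower (5.11%).

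The signals were also compared without the model. Among genes with no empty value, all 3 P90 arrays lay above all 3 E8.5 arrays in 20 of 26 members (19.8% of all genes) and above all 3 E13.5 arrays in 21 of 26 (9.04%). Both counts include all 10 genes that passed the filter only with their P90 arrays, so the filter favoured them. The P90 arrays lay below all E8.5 arrays in 1 member (23.4% of all genes) and below all E13.5 arrays in 0 (13.2%). The E13.5 arrays lay above all E8.5 arrays in 7 of 28 (17.8%) and below them in 1 (17.2%). An F-test of the same fit called a difference between any stages for 20 of the 28 members, against 26.3% of all genes. Of the 20 members called in some comparison, 16 were higher at P90 against both embryonic stages. The same 10 genes are part of the F-test count and of these 16. Quantile normalization kept each of these calls at P90 and added Ifitm2 and Irf1 in both P90 comparisons and Ifitm3 and Rsad2 against E13.5.

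**Figure D1:**
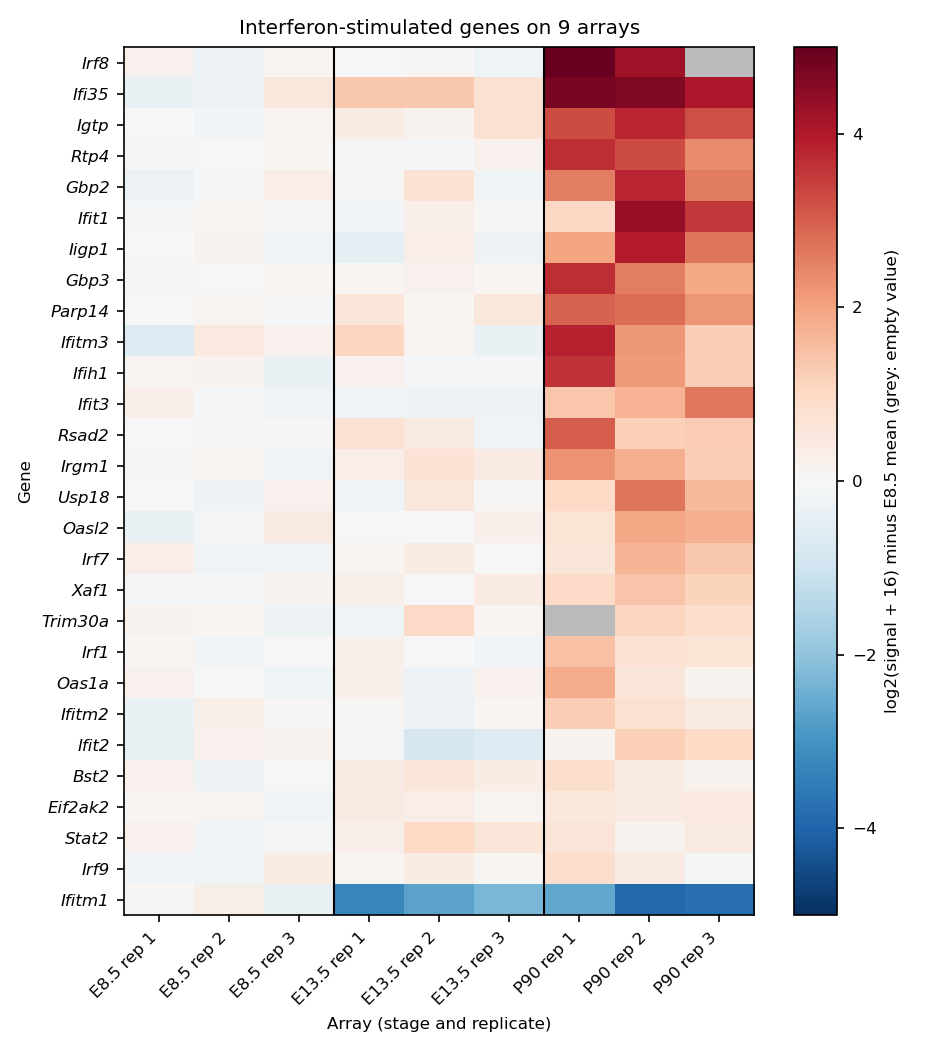
Heat map of the 28 tested genes (rows) on the 9 arrays (columns, by stage and replicate). Colour gives log2(signal + 16) minus the gene's E8.5 mean, red for higher and blue for lower, and grey marks an empty value. The P90 columns are red for most genes, E13.5 columns stay pale, and Ifitm1 is blue in both later stages.

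Promoters are shown because many members rose at P90, and the elements through which interferon acts can be read in them. RefSeq promoters of GRCm38.p6, from 250 bases before to 50 after the annotated start, were at hand for 27 of the 33 genes (33 promoters). The core of the interferon-stimulated response element, searched as GAAA, any 2 bases and GAAA on both strands, lay in 18 of the 33 member promoters (54.5%), against 3.44% of all 32851 promoters. The gamma activated site, TTCNNNGAA, which reads alike on both strands, lay in 10 of the 33 (30.3%), against 8.30% of all promoters. The searches may overlap in a promoter, as in Bst2. Of the genes called higher at P90 against E8.5, 9 of 14 with a promoter held the response element core (64.3%), and of those tested and not called higher 6 of 10 did (60%). For the gamma site the shares were 4 of 14 (28.6%) and 5 of 10 (50%). The genes were listed for their known ties to interferon, so an excess over all promoters was to be foreseen and is no result of these arrays. A match is a string of letters and does not show that a factor bound it.

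Windows upstream of the start follow, 5′ to 3′ in the direction of the gene, with motif cores in capitals. Ifit1 encodes a protein that binds viral RNA, and Ifit3 its binding partner. Both windows hold 2 cores in the reverse orientation, which start at -104 and -85 in Ifit1 and at -156 and -122 in Ifit3. Ifit2 of the same chromosome 19 has no such core in its promoter, and in Gbp3 and Irgm1 2 cores overlap.
Ifit1, chr19:34640760-34640838, plus strand: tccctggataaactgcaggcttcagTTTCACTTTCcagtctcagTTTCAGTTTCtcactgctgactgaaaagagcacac
Ifit3, chr19:34583348-34583441, plus strand: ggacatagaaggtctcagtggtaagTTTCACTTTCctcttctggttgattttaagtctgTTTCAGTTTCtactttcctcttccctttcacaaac
Gbp2, chr3:142620579-142620638, plus strand: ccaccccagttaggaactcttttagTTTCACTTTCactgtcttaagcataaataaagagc
Gbp3, chr3:142559974-142560039, plus strand: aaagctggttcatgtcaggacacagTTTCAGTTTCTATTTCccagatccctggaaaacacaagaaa
Irgm1, chr11:48871421-48871475, minus strand: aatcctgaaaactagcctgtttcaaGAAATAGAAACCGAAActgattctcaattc
Rsad2, chr12:26456538-26456597, minus strand: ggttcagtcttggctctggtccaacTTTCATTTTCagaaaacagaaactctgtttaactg
The Igtp window holds both kinds of motif, the gamma activated site first and the response element core after it, and the Irf8 window holds 2 gamma activated sites and no response element core. Irf8 and Igtp were among the largest increases at P90.
Igtp, chr11:58199486-58199555, plus strand: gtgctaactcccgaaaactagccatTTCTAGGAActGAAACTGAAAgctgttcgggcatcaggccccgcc
Irf8, chr8:120736162-120736238, plus strand: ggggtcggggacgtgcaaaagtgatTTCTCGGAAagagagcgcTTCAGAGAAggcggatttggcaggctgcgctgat
For contrast, the Irf1 window holds a gamma activated site and the Stat2 window a response element core, and neither gene was called in any comparison.
Irf1, chr11:53769899-53769957, plus strand: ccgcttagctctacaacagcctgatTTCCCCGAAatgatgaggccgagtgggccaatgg
Stat2, chr10:128270251-128270310, plus strand: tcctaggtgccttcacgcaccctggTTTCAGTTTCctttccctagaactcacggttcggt

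**Figure D2:**
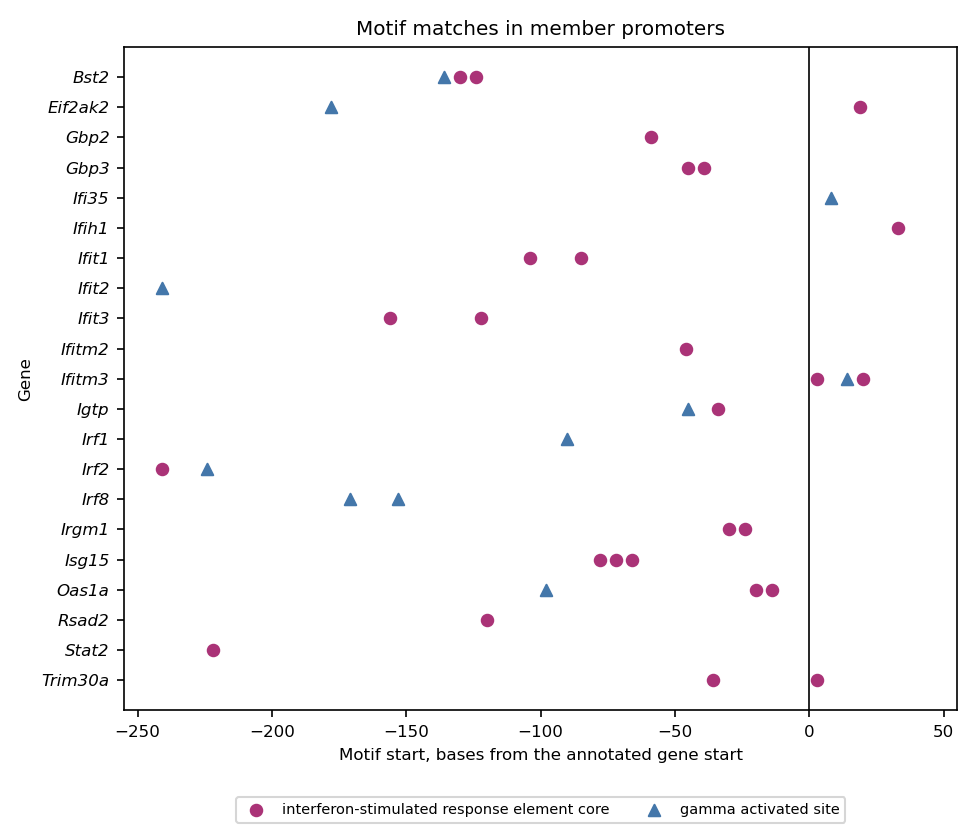
Positions of motif matches in the promoters of members that hold any (rows), as the start of the match in bases from the annotated gene start (horizontal axis, negative is upstream). Circles are response element cores and triangles gamma activated sites. Most matches lie upstream of the start, and Ifi35, Ifih1 and Ifitm3 have theirs only after it.

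Of the transcription factors that carry or shape the signal, 2 of 5 tested, Irf7 and Irf8, were called higher at P90 against both embryonic stages. Over all genes, 10.9% were called higher against E8.5 and 3.54% against E13.5. The other 3 factors were not called. Irf7 passed the filter only with its P90 arrays. Irf8, a factor needed for the formation of macrophages and dendritic cells, had signals of 31.7, 18.1 and 28.4 at E8.5, 25.9, 26.9 and 19.9 at E13.5, and 1429.7, 777 and an empty value at P90. Both measured P90 arrays stood far above every embryonic array. The fit used those 2 P90 values and gave a log2 change of 4.68 ± 0.34 (SE) at P90 against E8.5, 25.7-fold on the signal + 16 scale on which all folds here are given and which understates dim genes (adjusted p = 8.26e-06), and 4.74 ± 0.34 against E13.5 (adjusted p = 5.41e-05). The other Irf8 probe set gave 21.7 to 54.7 at E8.5, 15.02 to 20.9 at E13.5, then 124 on P90 replicate 3, and it was empty on P90 replicates 1 and 2. Macrophage markers moved the same way, with 7 of 11 tested called higher at P90 against E8.5, 2 of them passing the filter only with P90 arrays. The part of macrophages in the Irf8 change was not tested.

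Irf7, the factor that amplifies transcription of type I interferon genes, had signals of 26.3, 13.8 and 13.1 at E8.5, 20.1, 26.7 and 17.03 at E13.5, and 34.4, 92.9 and 69.5 at P90. All P90 values lay above the embryonic ones, with P90 replicate 1 closest to them. Its log2 change was 1.23 ± 0.30 at P90 against E8.5 (adjusted p = 0.0112) and 1.07 ± 0.30 against E13.5 (adjusted p = 0.0434). The first call was lost without E8.5 replicate 2 (adjusted p = 0.0512) or P90 replicate 2 (0.0524), and the second in 12 of 20 alternatives, with an adjusted p of up to 0.17 without E13.5 replicate 3.

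Stat2, Irf9 and Irf1 were not called in any comparison. Stat2, the STAT protein specific to type I signalling, had signals of 130.5, 94.3 and 106 at E8.5, 134, 235 and 176 at E13.5, and 181, 126 and 154 at P90, and its P90 and E13.5 values overlapped. Log2 changes were 0.42 at P90 against E8.5, -0.21 at P90 against E13.5 and 0.63 at E13.5 against E8.5 (adjusted p = 0.364, 0.786 and 0.214). The other Stat2 probe set had signals of 28.2, 16.6 and 24.1 at E8.5, 27.7, 10.4 and 17.5 at E13.5, and 30.9, 15.7 and 28.9 at P90, with the opposite sign in both comparisons with E13.5 (0.26 and -0.19, neither called). Irf9, the DNA-binding partner of Stat2, had signals of 135, 125 and 198 at E8.5, 168, 196 and 162 at E13.5, and 287, 206 and 144 at P90, which overlapped between all stages (log2 0.42, adjusted p = 0.416 at P90 against E8.5). Irf1, an activator of both interferon pathways, had signals of 225, 187 and 210.3 at E8.5, 250.2, 206 and 189 at E13.5, and 599, 352 and 338 at P90. Each P90 array lay above each embryonic array of Irf1, but the log2 change of 0.95 ± 0.34 at P90 against E8.5 missed the call (adjusted p = 0.0647), as did 0.91 ± 0.34 against E13.5 (adjusted p = 0.138). Irf2, which competes with Irf1 for its sites, had dim signals of 5.597, 3.33 and 4.33 at E8.5, 6.805, 10.5 and 6.86 at E13.5, and 29.0, 34.6 and 14.1 at P90. In the fit without the filter it was called higher at P90, by 1.004 against E8.5 (adjusted p = 0.00523) and 0.77 against E13.5 (adjusted p = 0.037).

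**Figure D3:**
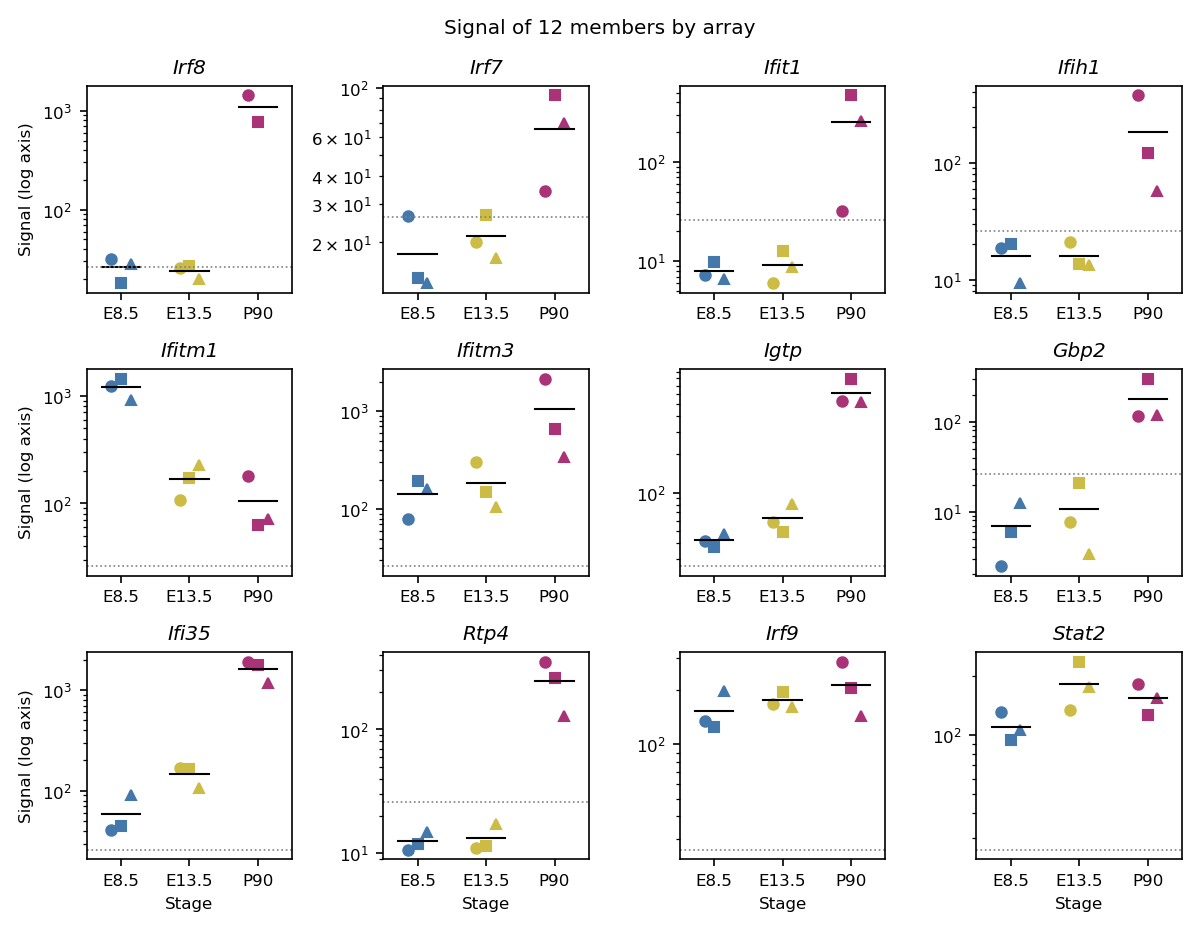
Signal of 12 members on each array (vertical axis, log scale, intensity units) by stage (horizontal axis). Circles, squares and triangles are replicates 1, 2 and 3, lines are stage means, and the dotted line is the filter at 26.1. The P90 points of Irf8, Igtp, Ifi35 and Rtp4 lie above every embryonic point, those of Irf9 and Stat2 do not, and Ifitm1 runs the other way.

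Among the genes whose products bind or sense RNA, Ifit1, Ifit3, Ifih1 and Oasl2 were called higher at P90 against both embryonic stages, and all 4 passed the filter only with their P90 arrays. Of the 3 that passed on embryonic arrays (Ifit2, Oas1a and Eif2ak2), 0 were called against E8.5 and 1 against E13.5, Ifit2. At P90 limma called 0 of the 7 tested lower (0 at an unadjusted p under 0.05). Ifit1, which binds the 5′ end of viral RNA and blocks its translation, had signals of 7.25, 9.87 and 6.68 at E8.5, 6.01, 12.8 and 8.79 at E13.5, and 32.4, 468 and 259 at P90. The embryonic arrays were all below the filter and the P90 arrays were spread widely, with replicate 1 lowest. Ifit1 rose by 2.96 ± 0.63 (log2) at P90 against E8.5 (adjusted p = 0.00536) and by 2.89 ± 0.63 against E13.5 (adjusted p = 0.0127). Its binding partner Ifit3 had signals of 9.17, 3.39 and 2.53 at E8.5, 2.54, 1.45 and 1.02 at E13.5, and 37.8, 54.3 and 112 at P90, and replicate 3 was the highest of the P90 arrays. Ifit3 rose by 1.92 ± 0.29 against E8.5 (adjusted p = 0.000706) and 2.15 ± 0.29 against E13.5 (adjusted p = 0.000796). These are the genes with paired cores in the windows printed above.

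Ifih1, also known as MDA5, the cytoplasmic sensor of long double-stranded RNA, had signals of 18.6, 20.1 and 9.33 at E8.5, 20.99, 13.7 and 13.3 at E13.5, and 376, 120.5 and 57.4 at P90. Here P90 replicate 1 was the highest array and replicate 3 the lowest of the P90 arrays, and no embryonic array passed the filter. The log2 change was 2.32 ± 0.48 at P90 against E8.5 (adjusted p = 0.00452) and 2.31 ± 0.48 against E13.5 (adjusted p = 0.00941).

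The remaining RNA-binding members had smaller fitted changes. Ifit2, another gene of the Ifit cluster, had means of 73.3 ± 19.3 on E8.5 arrays, 46.7 ± 17.6 on E13.5 arrays and 142 ± 53.0 on P90 arrays (SD, n = 3 each). Ifit2 was called at P90 against E13.5 only (1.31 ± 0.34, adjusted p = 0.0332; 0.79 ± 0.34, adjusted p = 0.124 against E8.5), and the difference between those changes is the uncalled one between E13.5 and E8.5. Oasl2, a relative of the enzymes that make antiviral oligoadenylates, rose by 1.47 ± 0.34 at P90 against E8.5 (adjusted p = 0.00843) and 1.40 ± 0.34 against E13.5 (adjusted p = 0.0215). Oas1a, which is such an enzyme, averaged 146 ± 103 at P90 and 61.6 ± 10.8 at E8.5 (SD, n = 3 each), and its change of 0.88 ± 0.40 was not called (adjusted p = 0.134). Eif2ak2, the kinase that halts translation on binding double-stranded RNA, had signals of 34.7, 35.2 and 24.3 at E8.5, 46.1, 42.5 and 35.7 at E13.5, and 51.9, 46.8 and 50.1 at P90 on the probe set used and of 25.8, 49.4 and 31.8 at E8.5, 15.3, 22.4 and 16.9 at E13.5, and 73.9, 43.9 and 53.9 at P90 on another. The probe set used was not called (log2 0.20 at P90 against E13.5, adjusted p = 0.686), while the other changed by 1.08 when every probe set was fitted (adjusted p = 0.025) and had the opposite sign at E13.5 against E8.5.

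The calls of this group against E13.5 leaned on single arrays, except that of Ifit3, which held in all 20 alternatives tried for it. Without E13.5 replicate 3, Ifih1 (adjusted p = 0.053), Ifit1 (0.0591), Oasl2 (0.0653) and Ifit2 (0.138) were not called. Without P90 replicate 3, Ifit1 (0.057), Oasl2 (0.0857) and Ifit2 (0.113) were not called, and without P90 replicate 2, E13.5 replicate 1 or 2, or E8.5 replicate 2 or 3, Oasl2 or Ifit2 was not called (adjusted p from 0.0538 to 0.128).

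Membrane and lipid effectors were the group in which members went opposite ways. Ifitm1, of a family of membrane proteins that block virus fusion and one also known from germ cells and mesoderm of the mouse embryo, had signals of 1225, 1439 and 913 at E8.5, 107, 171 and 226 at E13.5, and 181, 63.01 and 72.2 at P90. All E8.5 arrays stood above all later ones, and E13.5 and P90 overlapped. Ifitm1 fell by 2.75 ± 0.43 (log2) at E13.5 against E8.5, 6.72-fold (adjusted p = 0.0014), and by 3.42 ± 0.43 at P90 against E8.5, 10.7-fold (adjusted p = 0.000215). It was the sole member called lower in any comparison, and both calls held under the 21 alternatives tried.

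Ifitm3, of the same family and on the same chromosome 7, had signals of 78.6, 195 and 160.5 at E8.5, 304, 151 and 104 at E13.5, and 2152, 659 and 341 at P90. P90 replicate 1 lay several-fold above P90 replicate 3, which was close to the brightest E13.5 array. The log2 change was 2.41 ± 0.63 at P90 against E8.5 (adjusted p = 0.0161; 0.0759 without E8.5 replicate 1) and 2.11 ± 0.63 against E13.5, which missed the call (adjusted p = 0.0579). Ifitm2 averaged 2263 ± 626 at P90 and 1272 ± 270.1 at E8.5 (SD, n = 3 each), and its 0.81 ± 0.35 was called only after quantile normalization (adjusted p = 0.119, and 0.00457 after it). Thus within the family Ifitm1 was called lower and Ifitm3 higher at P90 against E8.5, with or without quantile normalization, while the call for Ifitm2 depended on the scaling.

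Rsad2, or viperin, an enzyme that makes a chain-terminating nucleotide, had signals of 110.4, 99.8 and 115 at E8.5, 188, 155 and 94.4 at E13.5, and 993, 265 and 284 at P90. All P90 arrays were above all embryonic ones, and replicate 1 stood far above the other P90 arrays. Its log2 change at P90 against E8.5 was 1.82 ± 0.48 (adjusted p = 0.0165; 0.0506 and 0.0633 without E8.5 replicates 1 and 2), and 1.49 ± 0.48 against E13.5 was not called (adjusted p = 0.0799). Bst2, or tetherin, which holds budding virions at the cell surface, stayed near the filter, at 31.6 ± 12.4 at P90 and 17.7 ± 5.76 at E8.5 (SD, n = 3 each; adjusted p = 0.176).

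The 5 interferon-induced GTPases tested were called higher at P90 against both E8.5 (10.9% of all genes) and E13.5 (3.54%), but Gbp2, Gbp3 and Irgm1 passed the filter only with their P90 arrays, and Mx1 and Mx2 did not pass it. Igtp and Iigp1 passed on embryonic arrays as well. Igtp, a small GTPase that guards the cell's own membranes during attack on microbe-holding vacuoles, had signals of 41.5, 36.8 and 47.3 at E8.5, 58.7, 48.8 and 80.9 at E13.5, and 532, 796 and 518 at P90. The P90 arrays lay close together and far above the embryonic arrays. Igtp rose by 3.42 ± 0.30 at P90 against E8.5, 10.7-fold (adjusted p = 1.47e-05), and by 2.99 ± 0.30 against E13.5 (adjusted p = 0.000139). Its relative Irgm1 had signals of 16.8, 18.1 and 11.1 at E8.5, 23.8, 35.9 and 25.1 at E13.5, and 133, 94.3 and 57.1 at P90, again with no overlap between P90 and the embryo. Irgm1 rose by 1.77 ± 0.28 against E8.5 (adjusted p = 0.00096) and 1.27 ± 0.28 against E13.5 (adjusted p = 0.0138; 0.0695 without E13.5 replicate 3). Iigp1, an effector that disrupts the vacuole, had signals of 43.5, 51.5 and 35.5 at E8.5, 26.3, 57.5 and 34.3 at E13.5, and 218, 896 and 360.0 at P90. P90 replicate 2 was the brightest. Iigp1 rose by 2.87 ± 0.44 against E8.5 (adjusted p = 0.000833) and 3.00 ± 0.44 against E13.5 (adjusted p = 0.00146).

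The guanylate-binding proteins are large GTPases that coat and open such vacuoles. Gbp2 had signals of 2.45, 5.88 and 12.5 at E8.5, 7.72, 20.9 and 3.42 at E13.5, and 116, 302 and 119 at P90, and its embryonic values were all under the filter. It rose by 2.98 ± 0.37 at P90 against E8.5 (adjusted p = 0.000172) and 2.79 ± 0.37 against E13.5 (adjusted p = 0.000701). The other Gbp2 probe set had signals of 28.6, 14.03 and 17.96 at E8.5, 13.1, 19.6 and 12.5 at E13.5, and 56.4, 57.2 and 38.3 at P90, and when every probe set was fitted its change was smaller, 0.89 against E8.5 (adjusted p = 0.021) and 1.09 against E13.5 (adjusted p = 0.0167). Gbp3 had signals of 6.37, 8.41 and 9.403 at E8.5, 9.85, 12.1 and 9.49 at E13.5, and 295, 125 and 75.1 at P90, and P90 replicate 1 led. Gbp3 rose by 2.72 ± 0.36 against E8.5 (adjusted p = 0.000296) and 2.59 ± 0.36 against E13.5 (adjusted p = 0.00104). Gbp genes are near-identical in places, so probes for Gbp2 may read a relative, and the probe set used for it is of the kind marked for cross-hybridisation.

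Mx1 and Mx2, dynamin-like GTPases that trap virus particles, stayed low at every stage. Mx1 had signals of 18.9, 15.1 and 18.7 at E8.5, 13.3, 19.7 and 9.86 at E13.5, and 16.7, 29.2 and 12.99 at P90, and Mx2 had signals of 18.6, 18.8 and 14.98 at E8.5, 17.7, 15.2 and 10.8 at E13.5, and 14.1, 12.8 and 14.97 at P90. A single array, P90 replicate 2, passed the filter, and for Mx1 alone. Without the filter, limma gave a log2 change at P90 against E8.5 of 0.06 for Mx1 (adjusted p = 0.882) and -0.16 for Mx2 (adjusted p = 0.503). Changes were not detectable at these signals.

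**Figure D4:**
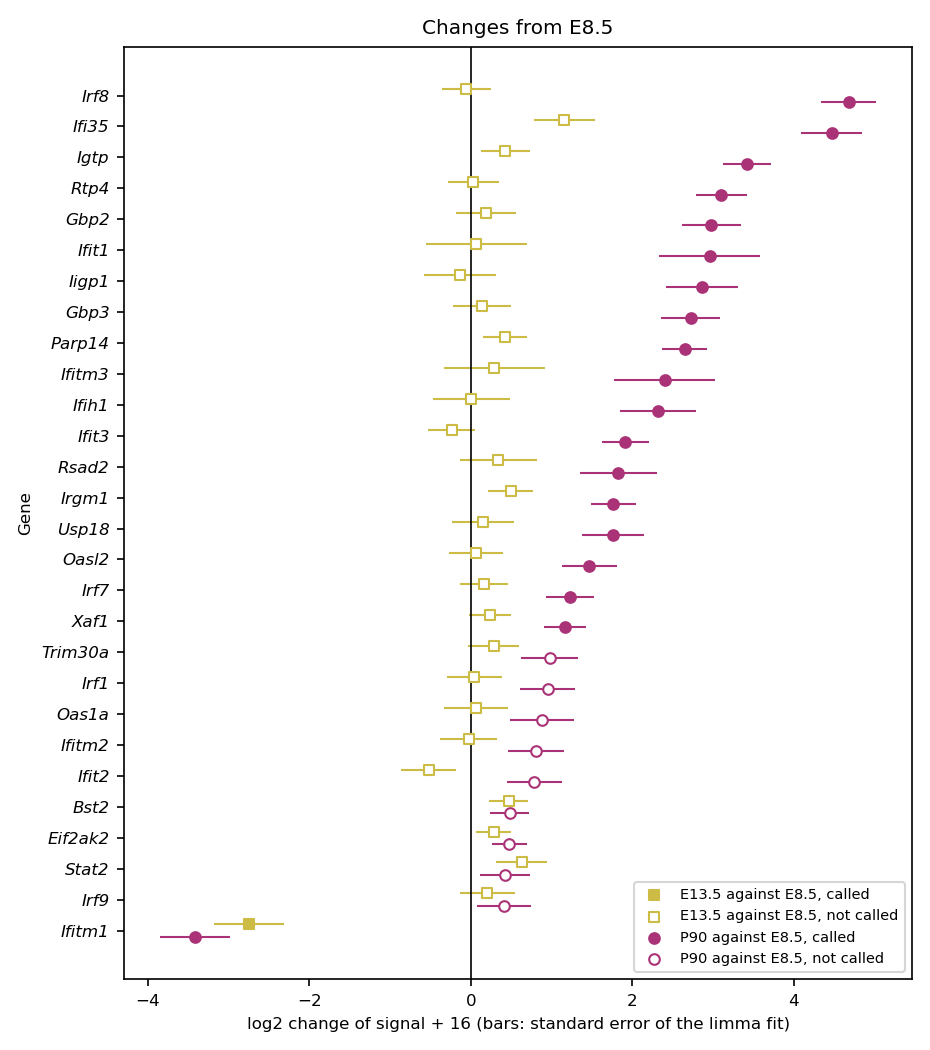
Log2 change of signal + 16 from E8.5 for the 28 tested genes (rows), with the standard error of the limma fit as bars. Squares are E13.5 and circles P90, filled where called. The P90 circles run from Ifitm1 at −3.42 to Irf8 at 4.68, and among the E13.5 squares Ifitm1 alone is filled.

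Usp18, the protease that removes the ubiquitin-like protein Isg15 and damps the type I receptor, had signals of 17.99, 11.8 and 22.99 at E8.5, 12.95, 33.95 and 18.9 at E13.5, and 49.9, 196 and 86.8 at P90. P90 replicate 2 was highest, no P90 array overlapped the embryo, and Usp18 passed the filter only with its P90 arrays. The log2 change was 1.76 ± 0.39 at P90 against E8.5 (adjusted p = 0.00655) and 1.61 ± 0.39 against E13.5 (adjusted p = 0.0211). The call against E13.5 was lost on leaving out P90 replicate 3 (adjusted p = 0.0541), P90 replicate 2 (0.0606), E13.5 replicate 1 (0.0677) or E13.5 replicate 3 (0.0945).

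Of the other induced genes, 4 of 5 tested were higher at P90 against both E8.5 (10.9% of all genes) and E13.5 (3.54%). Of these 4, Rtp4 passed the filter only with its P90 arrays. Ifi35, a leucine zipper protein known as the partner of Nmi, had signals of 41.2, 44.97 and 90.3 at E8.5, 169, 166 and 107 at E13.5, and 1901, 1765 and 1167 at P90. The stages separated completely, in the order E8.5, E13.5, P90. It rose by 4.47 ± 0.38 at P90 against E8.5, 22.2-fold (adjusted p = 1.12e-05), and 3.31 ± 0.38 against E13.5 (adjusted p = 0.000305). The step of 1.16 ± 0.38 at E13.5 against E8.5 missed the call (adjusted p = 0.0586) and passed it in 6 alternatives, without P90 replicate 1 among them (0.042). Its other 2 probe sets gave 3.85 and 3.80 at P90 against E8.5 when fitted.

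Rtp4, a chaperone of membrane receptors that interferon induces, had signals of 10.7, 11.95 and 14.8 at E8.5, 10.97, 11.4 and 17.3 at E13.5, and 352, 260.3 and 128 at P90. Its embryonic arrays were under the filter and no P90 array was. Rtp4 rose by 3.11 ± 0.32 against E8.5 (adjusted p = 4.65e-05) and 3.07 ± 0.32 against E13.5 (adjusted p = 0.000164). A further Rtp4 probe set was empty on E13.5 replicate 2 and gave at most 6.82 on the other arrays. Parp14, an ADP-ribosyltransferase, had signals of 22.7, 27.5 and 21.2 at E8.5, 44.7, 26.8 and 42.3 at E13.5, and 294, 258 and 167 at P90, with no overlap between P90 and the embryo. Parp14 rose by 2.65 ± 0.28 against E8.5 (adjusted p = 5.66e-05) and 2.23 ± 0.28 against E13.5 (adjusted p = 0.000517).

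Xaf1, an antagonist of an inhibitor of apoptosis, had signals of 49.9, 49.5 and 63.7 at E8.5, 70.9, 53.4 and 77.5 at E13.5, and 119, 173 and 137 at P90 on the probe set used and of 23.4, 21.5 and 43.9 at E8.5, 13.3, 40.7 and 20.4 at E13.5, and 26.2, 33.5 and 35.1 at P90 on another. The first separated P90 from the embryo and the second did not. On the first the log2 change was 1.17 ± 0.26 at P90 against E8.5 (adjusted p = 0.00786; 0.0594 on the mean of the probe sets) and 0.93 ± 0.26 against E13.5 (adjusted p = 0.0477), a call lost in 17 of 21 alternatives, which left out each array except P90 replicate 1 or changed a setting. Trim30a, a ubiquitin ligase that damps Toll-like receptor signalling in mice, gave 23.9 to 37.8 at E8.5, 25.6 to 76.9 at E13.5, and 85.6 and 72.2 on P90 replicates 2 and 3, with P90 replicate 1 empty. Its change of 0.98 ± 0.35 at P90 against E8.5 was not called (adjusted p = 0.0713).

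The called genes were not all brightest on the same P90 array. Of the 18 called higher at P90 against E8.5, 8 were brightest on replicate 1 (Gbp3, Ifi35, Ifih1, Ifitm3, Irgm1, Parp14, Rsad2 and Rtp4) and 8 on replicate 2 (Gbp2, Ifit1, Igtp, Iigp1, Irf7, Oasl2, Usp18 and Xaf1), while Ifit3 was brightest on replicate 3 and Irf8 had an empty value. Of all 1409 genes called higher at P90 against E8.5 with no empty value there, 48.2% were brightest on replicate 1, 46.6% on replicate 2 and 5.25% on replicate 3. The members were dimmest on replicate 1 in 8 cases, on replicate 2 in 1 and on replicate 3 in 8. Those shares over the 1409 genes were 38.3%, 6.96% and 54.7%. The ratio of the brightest to the dimmest P90 array reached 14.4 for Ifit1, 6.54 for Ifih1 and 6.30 for Ifitm3, and was 1.54 for Igtp. Without P90 replicate 1, limma called 19 members higher at P90 against E8.5 and 17 against E13.5. Of all 13748 genes, 1623 and 567 were called higher in that fit.

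**Figure D5:**
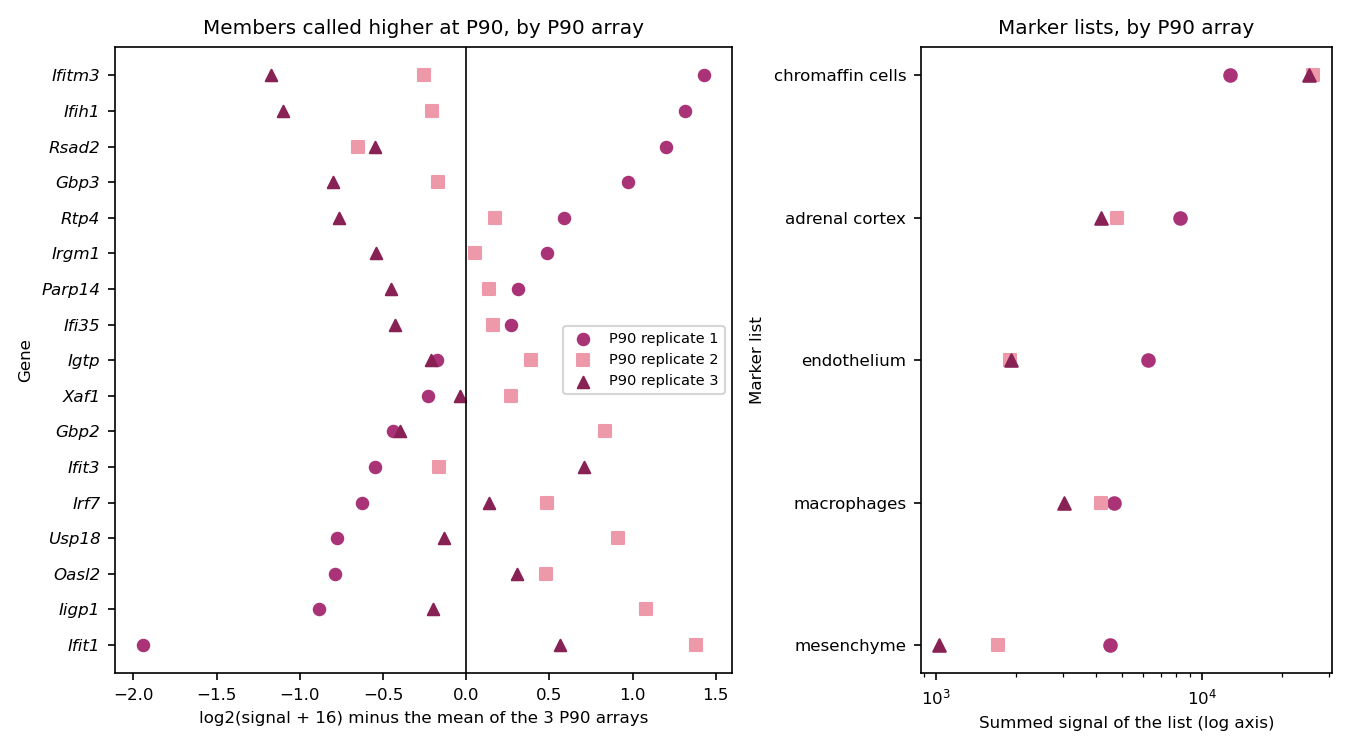
Left, log2(signal + 16) of members called higher at P90 against E8.5 (rows) on each P90 array, minus the gene's mean of the 3 P90 arrays. Right, summed signal of marker lists on each P90 array (log axis, intensity units, markers with no empty value). Circles, squares and triangles are P90 replicates 1, 2 and 3. Replicate 1 is highest for genes such as Ifitm3 and Ifih1 and lowest for genes such as Ifit1 and Iigp1. It has the highest macrophage, endothelium, mesenchyme and adrenal cortex sums and the lowest chromaffin sum.

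Some macrophage, endothelium and adrenal cortex markers and most chromaffin cell markers tested were called higher at P90, as many members were. Lymphocyte and dendritic cell markers were not called. Of 18 macrophage markers, 11 were tested. At P90, 7 were called higher against E8.5 (10.9% of all genes) and 4 against E13.5 (3.54%), and 1 at E13.5 against E8.5 (9.27%). Cd14 and Cx3cr1 passed the filter only with their P90 arrays, which favours genes that are higher there. Of the 9 macrophage markers that passed on embryonic arrays, 5 were called higher against E8.5 and 3 against E13.5 (9.74% and 2.70% of all genes that passed in this way). The summed signal of the 10 macrophage markers with no empty value was 1418 to 2080.1 on E8.5 arrays, 2248 to 2779 on E13.5 arrays and 3041 to 4682 on P90 arrays. The brightest of them at P90 were Csf1r, C1qb and Adgre1, while Itgam was under the filter on every array. C1qa, Mpeg1 and Ctss were empty on all P90 arrays, as were the adrenal cortex markers Star, Cyp11b1, Hsd3b1 and Cyp21a1 and the chromaffin marker Hand2. Why they were empty is not given, so an empty value cannot be read as a low signal, and the sums and tests leave these markers out. Of lymphocyte markers, limma called 0 of 5 tested at P90 against E8.5 (0 at an unadjusted p under 0.05), and their sums were 222 to 316 on E8.5 arrays, 263 to 345 on E13.5 arrays and 222 to 378 on P90 arrays. Chromaffin cell markers gave 8 of 8 higher at P90 against E8.5 and 7 against E13.5, and adrenal cortex markers 3 of 6 and 2. Endothelium markers gave 3 of 13 higher at P90 against E8.5 (10.9% of all genes) and 1 against E13.5 (3.54%). The endothelium sums were 768 to 1856 on E8.5 arrays, 1999 to 2721 on E13.5 arrays and 1896 to 6251 on P90 arrays. On P90 replicates 2 and 3 the endothelium sums lay below those of all E13.5 arrays. Limma called 0 of 4 tested dendritic cell markers (0 at an unadjusted p under 0.05). The part of these cells in the rise of the interferon-stimulated genes was not tested.

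The wider pathway was read from lists of 145 further genes, of which 118 were measured and 88 tested. At P90 against E8.5 limma called 32 higher (10.9% of all genes were) and 2 lower (12.5%). At P90 against E13.5 it called 23 higher (3.54%) and 0 lower (5.94%; 0 lower at an unadjusted p under 0.05). At E13.5 against E8.5 it called 5 higher (9.27%) and 0 lower (7.22%; 7 lower at an unadjusted p under 0.05). Of the 88, 18 passed the filter only with their P90 arrays. Of the other 70, 20 were higher at P90 against E8.5 and 12 against E13.5 (9.74% and 2.70% of all genes that passed on embryonic arrays). Median log2 changes of the 88 genes were 0.77, 0.41 and 0.24 for these comparisons.

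Of the interferons themselves, 10 of 21 were measured, 2 passed the filter and 0 were called in any comparison (0 at an unadjusted p under 0.05). The list of receptor chains and kinases also held the transcription factor Stat3. Of its 9 genes tested, 2 were called higher at P90 against E8.5 (10.9% of all genes). These were Ifnar2 (1.38 ± 0.38, adjusted p = 0.0215) and Stat3 (1.76 ± 0.52, adjusted p = 0.0309), so Ifnar2 was the sole receptor chain or kinase called. At E13.5 against E8.5 Stat3 was the sole call (1.91 ± 0.52, adjusted p = 0.0277), where 9.27% of all genes were called higher. Ifnar1, the partner chain of Ifnar2, averaged 175 ± 68.7 at P90 and 204 ± 60.9 at E8.5 (SD, n = 3 each; log2 -0.23, adjusted p = 0.733). The changes of Ifngr1 (0.91), Ifngr2 (1.02), Jak1 (1.20) and Tyk2 (0.69) at P90 against E8.5 were positive and missed the call (adjusted p = 0.0515, 0.0545, 0.0519 and 0.0623), as did that of Jak2 (0.80, adjusted p = 0.161). At P90 against E13.5, 0 of the 9 were called (0 at an unadjusted p under 0.05).

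Of genes that sense nucleic acid or relay its detection, 15 were tested and 12 passed the filter on embryonic arrays. At P90, 3 of the 12 were higher against both embryonic stages. With Dhx58 and Tlr3, which passed only with P90 arrays, 5 of the 15 were higher (10.9% of all genes against E8.5, 3.54% against E13.5). They were Trim25, a ubiquitin ligase that activates RIG-I (3.96 ± 0.52 against E8.5, adjusted p = 0.000288), Dhx58, a relative of RIG-I (1.29 ± 0.40, adjusted p = 0.0361), and Myd88, the adaptor of Toll-like receptors (1.65 ± 0.23, adjusted p = 0.00038). The other 2, named after their values were seen, were Tlr3, the endosomal sensor of double-stranded RNA (1.58 ± 0.30, adjusted p = 0.00266), and Ddx58, which is RIG-I (1.18 ± 0.27, adjusted p = 0.0105).

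Negative regulators were called at about the rate of all genes. At P90 against E8.5, 3 of 18 (10.9% of all genes) were higher, namely Nlrc5, the activator of class I antigen genes also listed as a brake on interferon (1.54 ± 0.28, adjusted p = 0.00238), the phosphatase Ptpn6 (1.46 ± 0.39, adjusted p = 0.0184) and Pias3, an inhibitor of STAT proteins (1.23 ± 0.32, adjusted p = 0.0167). Pias4, of the same family (-1.37 ± 0.42, adjusted p = 0.036), and Samhd1, a nucleotide hydrolase whose loss is known to switch interferon on (-1.09 ± 0.36, adjusted p = 0.0479), were lower (12.5% of all genes). At P90 against E13.5 Nlrc5 was the sole call (1.49, adjusted p = 0.00602), and at E13.5 against E8.5 it was Ptpn6 (1.32, adjusted p = 0.039).

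The last list held 74 other interferon-stimulated genes, 3 STAT genes among them. Of 44 tested, 22 were higher at P90 against E8.5 (10.9% of all genes), 17 against E13.5 (3.54%) and 3 at E13.5 against E8.5 (9.27%). Limma called 0 lower in any comparison (2 at an unadjusted p under 0.05, both at E13.5 against E8.5). Of the 44, 14 passed the filter only with their P90 arrays, Gbp6 and Nmi among them. Of the other 30, 12 were higher against E8.5 and 8 against E13.5 (9.74% and 2.70% of all genes that passed in this way). Gbp6, a guanylate-binding protein, averaged 8.33 ± 2.84 on E8.5 arrays, 50.9 ± 29.6 on E13.5 arrays and 577 ± 260.0 on P90 arrays (SD, n = 3 each). Its log2 changes at P90 were 4.51 ± 0.42 against E8.5 (adjusted p = 2.24e-05) and 3.15 ± 0.42 against E13.5 (adjusted p = 0.000722). Gbp7, of the same family, rose by 3.23 ± 0.27 and 3.04 ± 0.27 (adjusted p = 1.06e-05 and 7.39e-05), and Nmi, the partner of Ifi35, by 3.19 ± 0.21 and 2.54 ± 0.21 (adjusted p = 3.66e-06 and 6.05e-05). Those higher at E13.5 against E8.5 were Gbp6 (1.36, adjusted p = 0.0453) and, named after their values were seen, Cmpk2 (1.41, adjusted p = 0.0205) and Trim34a (1.08, adjusted p = 0.0274).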

How the data were processed

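The 9 Affymetrix arrays held 3 laser captures of each stage. Total RNA was isolated by PicoPure kit and 400 ng of it went into biotinylated cRNA, per the labels' protocols. The deposited table holds an intensity for each of 45101 probe sets and each array, unlogged and never under 1. The submitters' processing notes name MAS5, GCOS, RMA and GCRMA, with neither role nor version; the step that gave these values, and how arrays were scaled, are not given in the sources used here. Of its 405909 cells, 8048 (1.98%) were empty, for a reason not given. They were not spread evenly, as some markers were empty on all arrays of a single stage. The number of arrays limits the precision.

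Of the probe sets, 34945 were annotated to 1 gene symbol, 932 to several and 9160 to none, and 64 were controls; only the first were used. Entrez identifiers of 34741 matched the gene table, and 0 symbols changed. Signals were used as log2(signal + 16) with no further scaling. Probe sets with at least 3 arrays over a signal of 26.1, the 40th percentile of the whole table, and with at least 2 values per stage, were kept (24013), and the brightest per gene stood for each of 13748 of 18193 genes. Stages were compared in a single limma 3.58.1 fit of 9 arrays in R 4.3.3 (6 residual degrees of freedom, eBayes with a variance trend, two-sided), adjusted by Benjamini-Hochberg over all genes. The method was tested on simulated data. The members, gene lists and tests were chosen with earlier results of these data known.

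Values on every array are given for the 16 called members with the largest changes. They are also given for members with probe sets that passed the filter and disagree in sign. Other members are given on every array or in means, ranges or counts. From each pathway list, the 3 largest called changes in each direction are named, plus uncalled receptors and kinases. Alternatives were quantile normalization, pseudocounts of 1 and 64, no filter, a 60th percentile filter, no variance trend, fits of the compared arrays alone, other probe set choices, only genes with no empty cell, a replicate block, and leaving out each array. Promoters came from RefSeq (GRCm38.p6) and were scanned in Python 3.11.15.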

Additional observations from a re-analysis of the deposited data

How the results depend on the processing

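Every called log2 change kept its sign under every alternative tried for it. Of the values of single genes under the alternatives, 1641 kept their side of the threshold, 57 lost a call and 21 gained one. The widest moves came with a 60th percentile filter, which tests fewer of the members and called 10 higher at P90 against E8.5, 8 at P90 against E13.5 and 12 in any stage difference. Of all 10765 genes tested with that filter, 1286 were called higher at P90 against E8.5 and 375 against E13.5. Leaving out single arrays gave 16 to 19 higher at P90 against E8.5, 9 to 17 at P90 against E13.5, 0 to 1 at E13.5 against E8.5, and 15 to 20 in any stage difference. Of all 13748 genes, 938 to 1799, 272 to 567 and 779 to 1674 were higher in those 3 comparisons of stages. The lowest count at P90 against E13.5, 9, was without E13.5 replicate 3, where 272 of all 13748 genes tested were called higher, against 487 with it. At E13.5 against E8.5, 1 member (Ifi35) was called higher with a pseudocount of 1, the 60th percentile filter, no variance trend, only the arrays compared, the mean of probe sets, or without P90 replicate 1, against 0 otherwise. Lower calls stayed at 1 (E13.5 against E8.5 and P90 against E8.5) and 0 (P90 against E13.5) throughout.

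The replicate numbers were not shown to pair the arrays: deviations of same-numbered arrays correlated between −0.37 and 0.38. With the replicate block, 18 members were higher at P90 against E8.5, 15 at P90 against E13.5 and 0 at E13.5 against E8.5, 1 was lower in each comparison with E8.5, and 19 showed any stage difference. Of all 13748 genes, 1501, 487 and 1214 were higher in the same order of comparisons. A planned comparison of protein sequences was not run, as no protein table was used here. With 3 arrays per stage and a pseudocount of 16, changes of members near the floor are understated or not detectable.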
